A study of Macaca mulatta with 10 samples.

Results

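The genes described here are the chromatin modifier families of the rhesus macaque: lysine demethylases (KDM), lysine methyltransferases (KMT and SETD), histone deacetylases (HDAC), sirtuins (SIRT), SWI/SNF remodelling subunits (SMARC), chromobox proteins (CBX), chromodomain helicases (CHD) and TET dioxygenases. The rule takes the start of the annotated symbol and uses no measured value. The rule found 71 of the 13191 genes measured, read by 166 probe sets: 14 KDM, 7 KMT, 9 SETD, 9 HDAC, 5 SIRT, 10 SMARC, 6 CBX, 8 CHD and 3 TET genes. A single probe set measured 21 of them, and 2 or more measured the other 50.

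RNA came from the rhesus macaque embryonic stem cell line ORMES6 and was read on Affymetrix rhesus arrays, 10 in all, in 5 groups of 2. The groups were undifferentiated ES cells, whole cultures at in vitro differentiation stage 2 (IVDS2), the central foci of colonies at that stage (IVDS2-C), their peripheral area (IVDS2-P), and cultures at in vitro differentiation stage 3 (IVDS3). ES cells were kept on mouse embryonic fibroblast feeders in serum replacement medium with bFGF. Per the labels, hESdF, fibroblast-like cells of human ES cell origin, were added as partners in co-culture so that foci of a hepatic kind would form. Mouse or human cells thus shared the dishes with the macaque cells, and the labels do not say whether they were removed before RNA was taken. All samples come from 1 cell line, and the labels do not say whether the 2 arrays of a group are separate cultures, so p-values measure only the spread between these arrays, which may be technical. The labels give no time in days for the stages.

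Histones carry acetyl and methyl groups that are added, removed and bound by different protein families, and DNA carries methyl groups that TET enzymes oxidise as a first step of their removal. SWI/SNF and CHD proteins use ATP to slide or evict nucleosomes, and their complexes are built from interchangeable paralogues, so that one cell type can assemble a different version from another. In mouse ES cells a particular SWI/SNF version, TET1 and Polycomb complexes are known to take part in keeping the undifferentiated state, and several of these subunits are exchanged for paralogues as cells differentiate.

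The deposited values, taken as log2 because the sources used here give no log base, are centred on each probe set's median over the 10 arrays, so each one below says how far an array lay above or below that gene's own median. They give no level, and no gene can be ranked against another by abundance. Groups were compared with limma, a linear model fitted over all genes and all 10 arrays. Calls were made where p, adjusted by Benjamini-Hochberg over the 13191 genes, was under 0.05. Where leaving out 1 array ended the call of a member named with its value, that array is given with the highest adjusted p over 14 alternative settings. "Rose" and "fell" are used of called genes, and each difference is a log2 fold change with its standard error (SE). In these mixed cultures, fewer cells of a type and less RNA per cell cannot be told apart.

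In IVDS3 against ES cells, 12 of the 71 members rose and 26 fell, while 33 were not called. These counts are 16.9% and 36.6% of the members, beside 21.1% called higher and 28.6% called lower among all genes. Counts within families, of 3 to 14 genes each, are to be read beside the same shares of all genes. The median log2 fold change was -0.18 over the members and -0.13 over all genes. By at least 2-fold, 6 members rose and 5 fell, and such changes were not counted over all genes. The median absolute log2 fold change was 0.37 over the members and 0.39 over all genes. SMARCA2 and TET2 rose most, and TET1 and CBX5 fell most. Several paralogues went opposite ways: TET2, SMARCD3, KDM1B and KDM2A rose where TET1, SMARCD1, KDM1A and KDM2B fell. In the same comparison 15 of 15 cell cycle genes fell and 9 of 9 squamous epithelial genes rose, and their part in the members' changes was not tested.

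**Figure D1:**
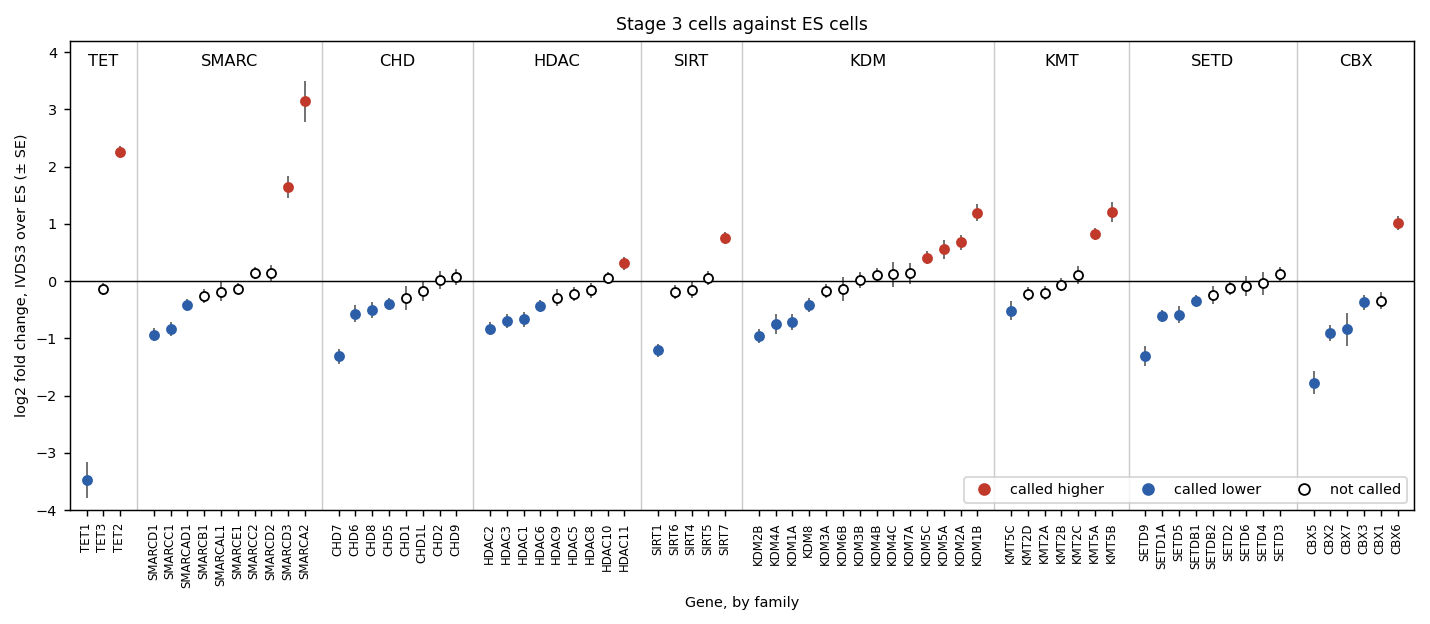
Log2 fold change of each of the 71 members in IVDS3 over ES cells, grouped by family, with bars of 1 SE and called members filled. TET1 (-3.48) and SMARCA2 (3.14) lie at the ends, and most members lie within 1 log2 unit of 0.

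The TET genes, whose products oxidise 5-methylcytosine, showed the widest split. TET1 read -2.84 and -2.65 on the IVDS3 arrays, against 0.57 and 0.91 on the ES arrays. It read 0.22 and -0.23 in whole IVDS2 cultures, -0.24 and -1.30 in IVDS2-C, and 0.78 and 0.42 in IVDS2-P. Both IVDS3 arrays lay below all the other 8, and the 2 IVDS2-C arrays differed by more than 1 log2 unit. TET1 was thus 11.2-fold lower in IVDS3 than in ES cells (log2 fold change -3.48 ± 0.32 SE, adjusted p = 3.37e-05, n = 2 arrays each), and its 2 probe sets gave -3.50 and -3.46.

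TET2, a paralogue that lacks the DNA-binding CXXC domain of TET1, went the other way. It read 1.24 and 1.25 on the IVDS3 arrays, against -1.03 and -0.99 on the ES arrays. The stage 2 arrays lay between them without overlap, at -0.29 and -0.19 in whole cultures, 0.30 and 0.35 in IVDS2-C, and -0.06 and 0.00 in IVDS2-P. The rise in IVDS3 over ES cells was 4.77-fold (log2 fold change 2.25 ± 0.10 SE, adjusted p = 8.41e-07), and TET2 was called higher than ES cells in all 4 differentiated groups. TET3, the third member, was called in none of the 6 comparisons, and its difference in IVDS3 against ES cells was -0.14 ± 0.11.

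**Figure D2:**
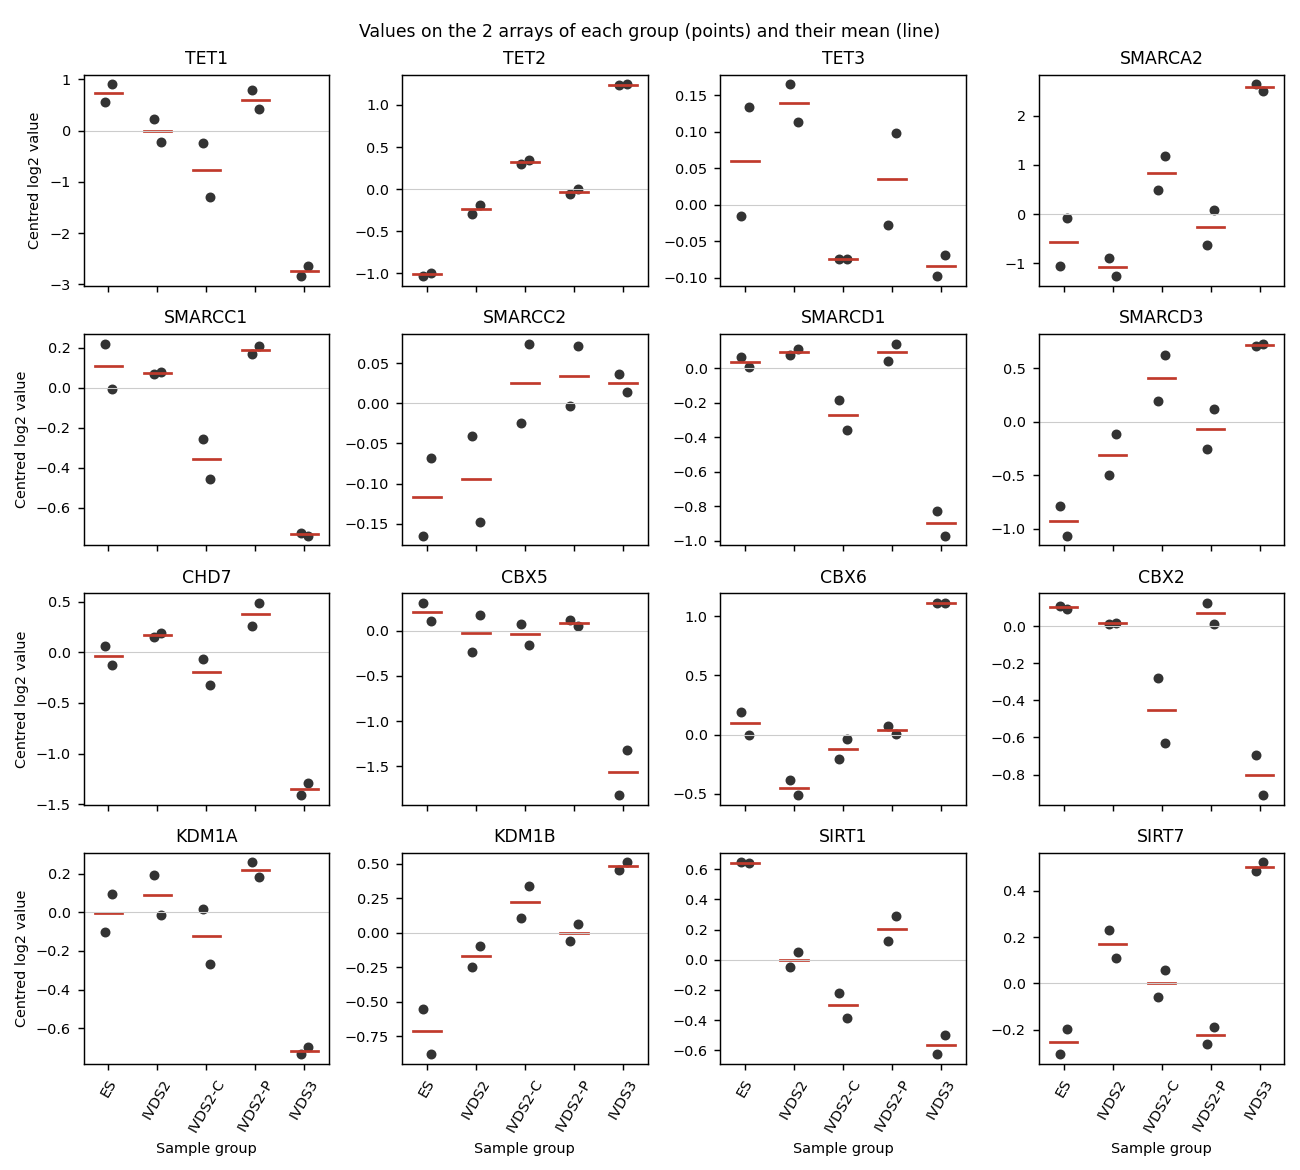
Centred log2 values of selected members on each of the 10 arrays, with stages and colony areas in order from ES cells to IVDS3, and a separate vertical scale in each panel. TET1 lies lowest and TET2 highest on both IVDS3 arrays, and CBX6 lies lowest in whole IVDS2 cultures.

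The SMARC genes encode subunits of SWI/SNF (BAF) complexes and related ATPases. In IVDS3, 2 of the 10 rose and 3 fell, beside 21.1% and 28.6% of all genes. SMARCA2 (BRM), one of the 2 alternative ATPases of these complexes, read 2.64 and 2.50 on the IVDS3 arrays, against -1.06 and -0.08 on the ES arrays. The stage 2 values were -0.90 and -1.26 in whole cultures, 0.49 and 1.18 in IVDS2-C, and -0.62 and 0.08 in IVDS2-P. The IVDS3 arrays were therefore the highest, the IVDS2-C arrays came next, and the other 3 groups overlapped. The rise in IVDS3 was 8.82-fold (3.14 ± 0.35, adjusted p = 0.000103), and all 5 probe sets rose, by 2.70 to 3.34. The other ATPase, SMARCA4, is not analysed here, so the ratio between them is unknown.

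The 3 SMARCD paralogues, of which a BAF complex holds 1 at a time, did not move alike. SMARCD3 (BAF60C), known in mouse from heart and muscle development, read 0.71 and 0.73 on the IVDS3 arrays, against -0.79 and -1.06 on the ES arrays, a rise of 1.65 ± 0.20 (adjusted p = 0.000156). SMARCD1 (BAF60A) read -0.83 and -0.97 on the IVDS3 arrays, against 0.06 and 0.01 on the ES arrays, a fall of 0.93 on the log2 scale (SE 0.11, adjusted p = 0.000147). SMARCD2 was not called (0.15 ± 0.14, adjusted p = 0.417).

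Of the paired scaffold subunits, SMARCC1 (BAF155), the one that prevails in mouse ES cells, read -0.72 and -0.74 in IVDS3, against 0.22 and 0.00 in ES cells. It fell by 0.84 on the log2 scale (SE 0.12, adjusted p = 0.000381), in all 5 of its probe sets. SMARCC2 (BAF170) was not called, at 0.14 ± 0.10, but its 3 probe sets ran from -0.21 to 0.69, with 1 called higher. SMARCAD1, a related ATPase that acts in heterochromatin upkeep, fell by 0.42 (SE 0.11, adjusted p = 0.0113), a call lost without either IVDS3 array (highest adjusted p = 0.0557). The core subunits SMARCB1 and SMARCE1 and the annealing helicase SMARCAL1 were not called in IVDS3, at -0.26, -0.13 and -0.18.

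Among the CHD remodellers 4 of 8 fell in IVDS3 and 0 rose, beside 28.6% called lower and 21.1% called higher among all genes. CHD7, which binds enhancers and is mutated in CHARGE syndrome, read -1.41 and -1.29 on the IVDS3 arrays, against 0.06 and -0.13 on the ES arrays. At stage 2 it read 0.15 and 0.19 in whole cultures, -0.07 and -0.32 in IVDS2-C, and 0.26 and 0.49 in IVDS2-P, so that only the IVDS3 arrays stood more than 1 unit below the median. The fall was 2.48-fold (-1.31 ± 0.13, adjusted p = 6.36e-05), with 3 probe sets at -1.18, -1.20 and -1.56. CHD8, a chromatin regulator linked to autism, differed by -0.51 ± 0.14 and CHD5, a neuronal NuRD ATPase, by -0.40 ± 0.10 (adjusted p = 0.0141 and 0.0107). Only 1 of the 2 probe sets of each was called lower. The sets gave -0.94 and -0.07 for CHD8, and -0.86 and 0.06 for CHD5.

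CHD6 was also called lower (-0.57 ± 0.15, adjusted p = 0.0105), but its gene value rested on 1 of 5 probe sets, which gave -2.52 while the other 4 lay between -0.43 and 0.14 and were not called. The CHD8 call was lost without ES replicate 1 or IVDS3 replicate 1, the CHD5 call without IVDS3 replicate 2, and the CHD6 call without ES replicate 2 or IVDS3 replicate 2, with highest adjusted p of 0.0997, 0.0827 and 0.0616. CHD1, CHD1L, CHD2 and CHD9 were not called in IVDS3 against ES cells, and lay between -0.30 and 0.07. CHD3 and CHD4, the main NuRD ATPases, are not analysed here.

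Of the 4 zinc-dependent deacetylases of class I, 3 fell, each by less than 2-fold, where 28.6% of all genes fell. HDAC2 read -0.51 and -0.66 in IVDS3, against 0.23 and 0.26 in ES cells, a fall of 0.83 (SE 0.11, adjusted p = 0.000255). HDAC1, its partner in the SIN3, NuRD and CoREST complexes, read -0.47 and -0.33 in IVDS3 and 0.21 and 0.33 in ES cells, a fall of 0.67 (SE 0.13, adjusted p = 0.00197). HDAC3, the deacetylase of the NCoR and SMRT corepressors, fell by 0.69 (SE 0.13, adjusted p = 0.00179). HDAC8, the remaining class I member, was not called (-0.16 ± 0.13).

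Outside class I, the tubulin deacetylase HDAC6 differed by -0.43 ± 0.11 (adjusted p = 0.00866, and 0.0599 without IVDS3 replicate 1). HDAC11 was called higher by 0.31 ± 0.12 (adjusted p = 0.0494), a call that 11 of 14 alternatives ended, among them the loss of any 1 array but ES replicate 2 (highest adjusted p = 0.226). HDAC5, HDAC9 and HDAC10 were not called in IVDS3 against ES cells, at -0.23, -0.29 and 0.06. In the family as a whole, 1 gene rose, 4 fell and 4 were not called. Of all genes, 21.1% rose and 28.6% fell.

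The sirtuins, NAD-dependent deacylases, had 1 member up and 1 down. SIRT1, the nuclear deacetylase of histones and p53, read -0.63 and -0.50 in IVDS3, against 0.64 and 0.64 in ES cells. At stage 2 it read -0.05 and 0.05 in whole cultures, -0.22 and -0.38 in IVDS2-C, and 0.12 and 0.29 in IVDS2-P, so the ES arrays were the highest of all 10 and the IVDS3 arrays the lowest. The fall in IVDS3 was 2.31-fold (-1.21 ± 0.12, adjusted p = 4.36e-05), from 1 probe set. SIRT7, a nucleolar sirtuin, read 0.49 and 0.52 in IVDS3, against -0.31 and -0.20 in ES cells, and rose by 0.76 ± 0.11 (adjusted p = 0.000386). SIRT4, SIRT5 and SIRT6 were called in none of the 6 comparisons. In IVDS3 against whole IVDS2 cultures the 2 probe sets of SIRT5 gave -0.02 and 0.49, with 1 called higher.

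Among the 14 lysine demethylases 4 rose, 4 fell and 6 were not called in IVDS3 against ES cells. Of all genes, 21.1% rose and 28.6% fell. The flavin-dependent pair split: KDM1B (LSD2), needed in mouse oocytes for imprints, read 0.45 and 0.51 in IVDS3, against -0.55 and -0.88 in ES cells, a rise of 1.20 ± 0.14 (adjusted p = 0.000146). KDM1A (LSD1), the demethylase of the CoREST complex, read -0.74 and -0.70 in IVDS3, against -0.10 and 0.09 in ES cells, a fall of 0.71 (SE 0.14, adjusted p = 0.00213). The KDM1B rise was uneven over its 4 probe sets, at 2.06, 1.69, 0.57 and 0.47, of which the last was not called.

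The KDM2 pair, whose CXXC domains bind unmethylated CpG islands, split as well. KDM2B, which brings a Polycomb complex to such islands, read -0.88 and -1.02 in IVDS3, against 0.02 and 0.01 in ES cells, and fell by 0.96 (SE 0.12, adjusted p = 0.000211). KDM2A read 0.54 and 0.51 in IVDS3, against -0.12 and -0.19 in ES cells, and rose by 0.68 ± 0.13 (adjusted p = 0.00247). KDM4A fell by 0.75 (SE 0.17, adjusted p = 0.00625) and KDM8 by 0.42 (SE 0.12, adjusted p = 0.0163), while KDM5A and KDM5C, which remove methylation found at active promoters, rose by 0.55 ± 0.16 and 0.41 ± 0.11 (adjusted p = 0.0184 and 0.0158).

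The KDM8 and KDM5C calls were lost without ES replicate 2, IVDS3 replicate 1 or IVDS3 replicate 2, and the KDM5A call without ES replicate 1 or IVDS3 replicate 2 (highest adjusted p = 0.077, 0.0707 and 0.331). KDM3A was not called (-0.17 ± 0.12), but its 3 probe sets disagreed, with 1 called higher at 0.45, 1 called lower at -1.25 and 1 uncalled at 0.28. KDM3B, KDM4B, KDM6B and KDM7A were called in none of the 6 comparisons. KDM5B, KDM5D and KDM6A are not analysed here.

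Methyltransferases of histone H4 made up all the KMT calls. KMT5A, the monomethylating enzyme, read 0.33 and 0.26 in IVDS3, against -0.54 and -0.52 in ES cells, and rose by 0.82 ± 0.10 (adjusted p = 0.000211). KMT5B, which adds further methyl groups, read 0.54 and 0.37 in IVDS3, against -0.51 and -0.98 in ES cells, a rise of 1.20 ± 0.17 (adjusted p = 0.00046). The KMT5B value averages probe sets of opposite sign: 2 rose by 2.12 and 2.40, and 1 fell by 0.93 on the log2 scale. Its paralogue KMT5C was called lower by 0.51 (SE 0.17, adjusted p = 0.0333), a call lost without ES replicate 2 or IVDS3 replicate 2 (highest adjusted p = 0.196). KMT2A, KMT2B, KMT2C and KMT2D, the catalytic subunits of MLL complexes, were called in none of the 6 comparisons. In IVDS3 against ES cells they lay between -0.22 and 0.10. The 5 probe sets of KMT2D ran from -0.58 to 0.09 there, with 1 called lower.

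**Figure D3:**
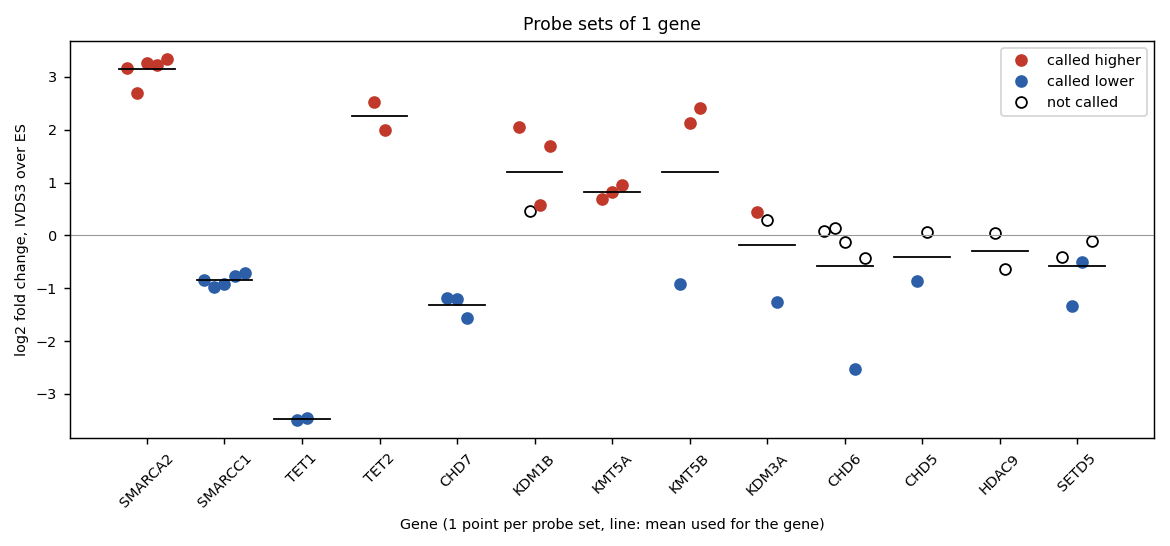
Log2 fold change in IVDS3 over ES cells of each probe set of selected members, with the gene's mean marked. The 5 SMARCA2 sets lie together, whereas the KMT5B and KDM3A sets lie on both sides of 0 and a single CHD6 set lies far below the other 4.

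In the SETD family 4 of 9 fell and 0 rose, beside 28.6% called lower and 21.1% called higher among all genes. SETD9 read -1.0 and -0.88 in IVDS3, against 0.60 and 0.14 in ES cells, a fall of 1.31 (SE 0.17, adjusted p = 0.000265) with its 2 probe sets at -1.22 and -1.40. SETD1A, a catalytic subunit of COMPASS, fell by 0.61 (SE 0.10, adjusted p = 0.00115). SETD5 and SETDB1 (a silencer of retroelements in mouse ES cells) differed by -0.58 ± 0.16 and -0.35 ± 0.11 (adjusted p = 0.0125 and 0.021). The SETD5 call was lost without ES replicate 2 or IVDS3 replicate 2, and the SETDB1 call without either IVDS3 array (highest adjusted p = 0.0676 and 0.117). SETD2, SETD3, SETD4, SETD6 and SETDB2 were called nowhere. The 4 probe sets of SETD3 ran from -0.15 to 0.76 in whole IVDS2 cultures against ES cells, with 1 called higher. In IVDS2-C against ES cells they ran from -0.13 to 0.72, again with 1 called higher.

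Chromobox proteins bind methylated histone H3, either in heterochromatin (HP1 proteins CBX1, CBX3 and CBX5) or in Polycomb complexes (CBX2, CBX6 and CBX7). CBX5 (HP1 alpha) read -1.82 and -1.32 in IVDS3, against 0.31 and 0.10 in ES cells. Its stage 2 arrays ranged only from -0.24 to 0.18, so the IVDS3 arrays were the lowest by more than 1 unit. The fall was 3.42-fold (-1.77 ± 0.20, adjusted p = 9.35e-05), with probe sets at -1.91 and -1.63. CBX3 (HP1 gamma) was called at -0.37 ± 0.13 (adjusted p = 0.04), a call that 12 of 14 alternatives ended, among them the loss of any 1 array but ES replicate 2 (highest adjusted p = 0.175). CBX1 (HP1 beta) was not called in IVDS3 against ES cells (-0.34 ± 0.15).

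The Polycomb chromobox genes did not move together. CBX6 read 1.11 and 1.11 in IVDS3, against 0.19 and -0.01 in ES cells, and rose by 1.02 ± 0.12 (adjusted p = 0.000118). CBX2 read -0.69 and -0.91 in IVDS3, against 0.11 and 0.09 in ES cells, and fell by 0.90 (SE 0.14, adjusted p = 0.000624). CBX7, the main Polycomb chromobox of mouse ES cells, read -0.02 and -0.40 in IVDS3, against 0.26 and 1.01 in ES cells. Its fall of 0.84 (SE 0.29, adjusted p = 0.0379) rested on widely spaced arrays, and without ES replicate 2, IVDS3 replicate 1 or IVDS3 replicate 2 it was not called (highest adjusted p = 0.25).

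Of the 38 calls in IVDS3 against ES cells, 24 held under all 14 alternative settings, and 0 changed sign. The calls that did not hold were those of CBX3, CBX7, CHD5, CHD6, CHD8, HDAC6, HDAC11, KDM5A, KDM5C, KDM8, KMT5C, SETD5, SETDB1 and SMARCAD1. Leaving out either IVDS3 array left fewer members called lower, and fewer of all genes as well. The 33 uncalled members lay between -0.34 and 0.15.

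**Figure D4:**
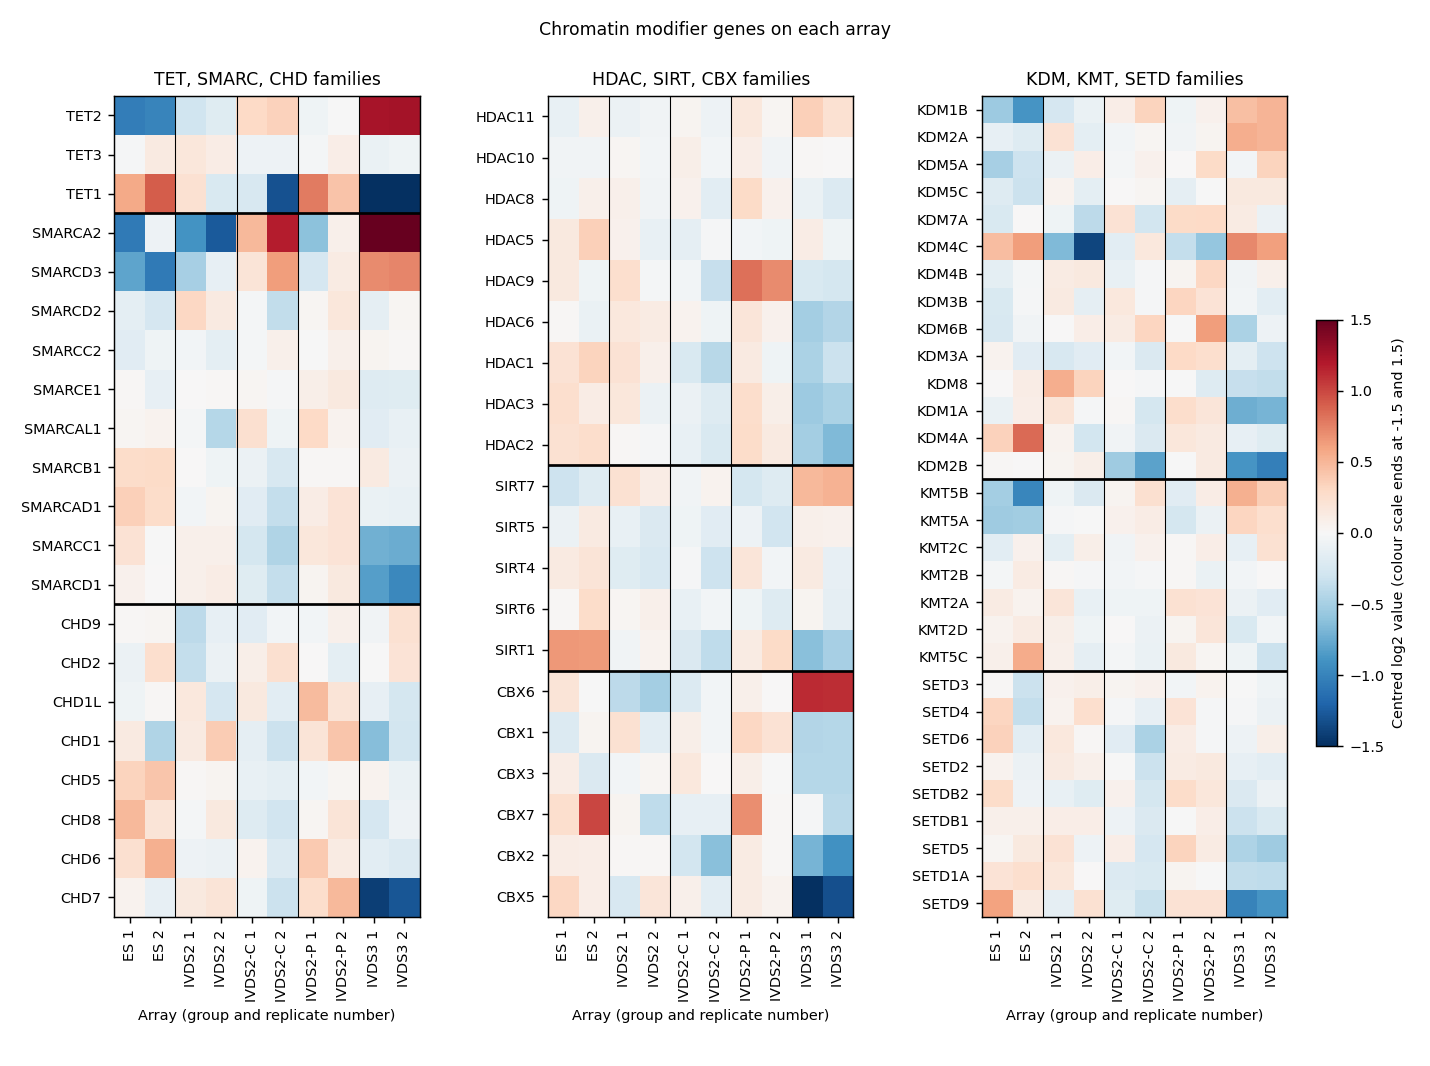
Centred log2 value of each member (rows, by family) on each of the 10 arrays (columns, from ES cells through stage 2 to IVDS3), with colour running from below to above the gene's median. TET1, CBX5 and CHD7 stand out as low and SMARCA2, TET2 and CBX6 as high in the IVDS3 columns.

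The stage 2 groups were each set against ES cells next. These comparisons and that of IVDS3 share the 2 ES arrays and are therefore not independent of one another. In whole IVDS2 cultures 4 members rose and 4 fell (5.63% each), beside 6.5% and 6.23% of all genes. In IVDS2-C 6 rose and 15 fell (8.45% and 21.1%), beside 13.7% and 16.5%. In IVDS2-P 5 rose and 3 fell (7.04% and 4.23%), beside 6.31% and 4.67%. The members' shares lay near those of all genes in IVDS2 and IVDS2-P.

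In whole IVDS2 cultures the members called higher were TET2 (0.77 ± 0.10), KDM1B (0.55 ± 0.14), KMT5A (0.52 ± 0.10) and SIRT7 (0.42 ± 0.11). The 4 probe sets of KDM1B ran from -0.36 to 1.29, with 2 called higher. The members called lower were KDM4C (-1.57 ± 0.22), KDM4A (-0.71 ± 0.17), SIRT1 (-0.64 ± 0.12) and CBX6 (-0.54 ± 0.12). The calls of TET2, KDM4C and SIRT1 held under all 14 alternatives. The KMT5A call was lost without either IVDS2 array and the CBX6 call without IVDS2 replicate 2 (highest adjusted p = 0.0877 and 0.114). The KDM4A call was lost without ES replicate 2, IVDS2 replicate 2 or either IVDS3 array (highest adjusted p = 0.189). The loss of any 1 IVDS2, IVDS2-P or IVDS3 array ended the calls of KDM1B and SIRT7, as did that of ES replicate 2 for KDM1B and ES replicate 1 for SIRT7 (highest adjusted p = 0.203 and 0.167). Fewer members rose without ES replicate 2 or any 1 IVDS2, IVDS2-P or IVDS3 array. More members fell without ES replicate 1, and fewer fell without ES replicate 2, IVDS2 replicate 2 or either IVDS3 array. Each of these changes went the same way over all genes.

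KDM4C, a demethylase of heterochromatic histone H3 methylation, was the member with the largest fall in whole IVDS2 cultures. It read -0.66 and -1.38 there, against 0.46 and 0.63 in ES cells (adjusted p = 0.00222). IVDS2-C read -0.16 and 0.16, IVDS2-P read -0.36 and -0.58, and in IVDS3 the gene stood at 0.72 and 0.61. It was called lower than ES cells in IVDS2-P too (-1.02 ± 0.22, adjusted p = 0.0204), a call lost without ES replicate 2, IVDS2-P replicate 1 or IVDS2-P replicate 2 (highest adjusted p = 0.148). It did not differ by a called amount in IVDS2-C (-0.55) or IVDS3 (0.12 ± 0.22). A single probe set measured it.

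In the central foci, the rises were those of SMARCA2 (1.40 ± 0.35), TET2 (1.34 ± 0.10), SMARCD3 (1.33 ± 0.20), KDM1B (0.94 ± 0.14), KMT5B (0.89 ± 0.17) and KMT5A (0.61 ± 0.10). Probe sets ran from 0.28 to 1.56 for KDM1B (2 of 4 called higher) and from -0.45 to 1.61 for KMT5B (2 of 3). The falls were led by TET1 (-1.51 ± 0.32), SIRT1 (-0.94 ± 0.12), KDM4A (-0.74 ± 0.17), KDM2B (-0.68 ± 0.12) and SETD9 (-0.63 ± 0.17). The remaining 10 falls, between -0.59 and -0.42, were those of HDAC1, CHD8, SMARCAD1, CBX2, CHD5, CHD6, SMARCC1, SMARCB1, SETD1A and HDAC2. The 5 probe sets of CHD6 ran from -2.26 to 0.08, with 1 called lower, and 3 of 5 SMARCC1 sets were called. Only 1 of 2 sets was called lower for CBX2 (-0.87 and -0.24), CHD5 (-0.83 and -0.18) and CHD8 (-0.83 and -0.34). The same held for HDAC2 (-0.49 and -0.34) and SETD9 (-0.64 and -0.62). SMARCB1, a core BAF subunit, was called in no other comparison. All 15 of the fallen genes read lower on IVDS2-C replicate 2 than on replicate 1, an order not counted over all genes. Without IVDS2-C replicate 2 fewer of all genes were called lower. Of the 15 falls, only those of KDM2B, SIRT1, SMARCAD1 and TET1 were left without it. Of the other 11, those of CHD8, SETD9 and SMARCC1 were also lost without ES replicate 1, those of KDM4A, HDAC2, SMARCB1 and CHD6 without ES replicate 2, that of SETD9 without IVDS2-C replicate 1, and that of CHD6 without any 1 IVDS2 or IVDS3 array. The highest adjusted p of these 11 ran from 0.0567 for CHD5 to 0.235 for CHD6. The SMARCA2 rise was lost without ES replicate 1 or IVDS2-C replicate 2 (highest adjusted p = 0.119).

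In the peripheral area, TET2 (0.98 ± 0.10), SMARCD3 (0.86 ± 0.20), HDAC9 (0.73 ± 0.15), KMT5B (0.72 ± 0.17) and KDM1B (0.72 ± 0.14) were called higher. Probe sets ran from -0.03 to 1.48 for HDAC9 (1 of 2 called higher) and from 0.02 to 1.28 for KMT5B (1 of 3). For KDM1B they ran from -0.05 to 1.42 (2 of 4). KDM4C, SIRT1 (-0.44 ± 0.12, adjusted p = 0.0447) and CHD5 (-0.38 ± 0.10, adjusted p = 0.0481) were called lower. The TET2 call held under all 14 alternatives, whereas the SIRT1 call was lost under all 14 and the CHD5 call under 12, among them the loss of any 1 array but ES replicate 1 (highest adjusted p = 0.2 and 0.188). Without ES replicate 2 or IVDS2-P replicate 2, SMARCD3, HDAC9, KMT5B and KDM1B were not called. HDAC9 and KMT5B were not called without IVDS2-P replicate 1 either, nor SMARCD3 and KMT5B without either IVDS3 array. The highest adjusted p was 0.194 for SMARCD3, 0.0932 for HDAC9, 0.218 for KMT5B and 0.123 for KDM1B. Fewer members rose without ES replicate 2, either IVDS2-P array or either IVDS3 array, and fewer of all genes rose as well. Fewer members fell without any 1 array but ES replicate 1, and again fewer of all genes.

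The 2 areas of the colonies were compared directly. In IVDS2-C against IVDS2-P, 0 members rose and 8 fell (0% and 11.3%), beside 5.64% called higher and 3.95% called lower among all genes. At an unadjusted p under 0.05 in the limma fit, 4 members were higher and 19 lower (5.63% and 26.8%), beside 11.4% and 14.6% of all genes. The median log2 difference was -0.18 over the members and -0.03 over all genes. The mean of the IVDS2-C arrays lay below that of the IVDS2-P arrays in 53 of 71 members (74.6%) and in 55.5% of all genes. In the same comparison 6 of 15 cell cycle genes fell and 4 of 9 squamous epithelial genes rose, and their part in the members' differences was not tested.

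TET1 differed most among the called members, at -0.24 and -1.30 in IVDS2-C, against 0.78 and 0.42 in IVDS2-P (-1.37 ± 0.32, adjusted p = 0.0302). HDAC9, a class IIa deacetylase that works as a transcriptional corepressor in muscle, read -0.04 and -0.35 in IVDS2-C, against 0.83 and 0.71 in IVDS2-P. Its difference was -0.96 ± 0.15 (adjusted p = 0.00538), and the IVDS2-P arrays were the highest of all 10. That difference came from 1 of its 2 probe sets (-1.74), while the other gave -0.19 and was not called. KDM2B read -0.54 and -0.80 in IVDS2-C, against 0.14 and -0.01 in IVDS2-P (-0.73 ± 0.12, adjusted p = 0.00808).

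The other 5 were CHD7 (-0.57 ± 0.13, adjusted p = 0.033), SMARCC1 (-0.55 ± 0.12, adjusted p = 0.0238), CBX2 (-0.52 ± 0.14, adjusted p = 0.0473), SIRT1 (-0.51 ± 0.12, adjusted p = 0.0292) and SMARCAD1 (-0.43 ± 0.11, adjusted p = 0.0431). The 2 probe sets of CBX2 gave -0.91 and -0.13, with 1 called lower. Both IVDS2-C arrays lay below both IVDS2-P arrays in 42 of the 71 members (59.2%) and in 35.5% of all genes. That was so for every gene called lower here, the 8 members and all 521 genes, so the position adds nothing to a call. SMARCA2 lay higher in IVDS2-C, at 0.49 and 1.18, against -0.62 and 0.08 in IVDS2-P, but was not called (1.10 ± 0.35, adjusted p = 0.0845). None of the 8 calls held under all 14 alternatives. HDAC9 was lost without IVDS2-P replicate 1, and KDM2B without IVDS2-C replicate 2 or IVDS2-P replicate 2 (highest adjusted p = 0.0535 and 0.0737). The other 6 were lost without IVDS2-C replicate 2 or either IVDS2-P array. TET1, CHD7, CBX2 and SMARCAD1 were lost without either IVDS3 array too, CHD7, CBX2 and SMARCAD1 without either whole IVDS2 array, and CBX2 without either ES array. The highest adjusted p was 0.173 for TET1, 0.278 for CHD7, 0.211 for SMARCC1, 0.375 for CBX2, 0.245 for SIRT1 and 0.35 for SMARCAD1. Fewer members were called lower without IVDS2-C replicate 2, either IVDS2-P array, either IVDS3 array or either whole IVDS2 array. In each of these settings fewer of all genes were called lower as well. SMARCA2 and TET2 were called higher without ES replicate 1 or ES replicate 2.

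**Figure D5:**
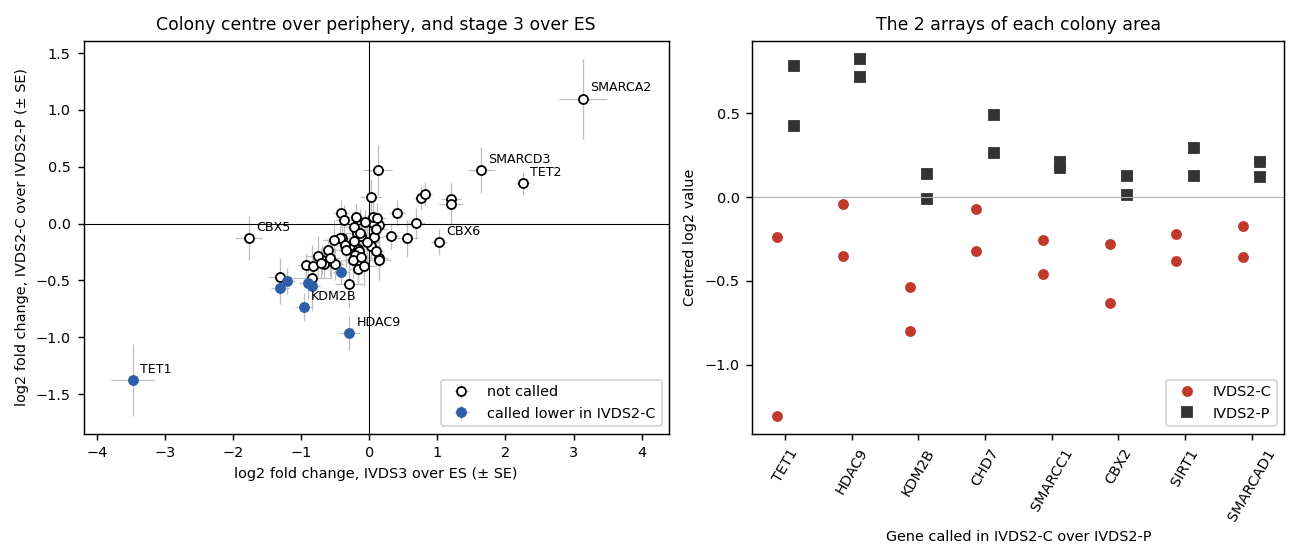
Left, log2 fold change of the 71 members in IVDS2-C over IVDS2-P plotted against that in IVDS3 over ES cells, with bars of 1 SE and members called lower in IVDS2-C filled. Right, centred log2 values of the 8 called members on the 2 arrays of each colony area, where both IVDS2-C arrays lie below both IVDS2-P arrays, as they do for every gene called lower.

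The comparison of colony areas has no array in common with that of IVDS3 and ES cells, so their log2 fold changes rest on different arrays. Their calls are not independent, because each gene has the same SE in both, taken from the fit over all arrays. A gene with a small SE is more readily called in both, so the overlap is given beside that of all genes. Of the 8 members called lower in the colony centre, 7 were also called lower in IVDS3, all but HDAC9. That is 87.5% of the 8 and 26.9% of the 26 that fell in IVDS3. Among all genes, 457 were lower in both, which is 87.7% of the 521 lower in the centre and 12.1% of the 3777 lower in IVDS3. Of the 26 members that fell in IVDS3, 24 (92.3%) also had a lower mean in IVDS2-C than in IVDS2-P, beside 88.1% of all genes that fell. Of the 12 that rose, 9 (75%) had a higher mean in IVDS2-C, beside 82.7% of all genes that rose.

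In IVDS3 against whole IVDS2 cultures, 11 members rose and 21 fell (15.5% and 29.6%), beside 17.6% and 22.2% of all genes. The rises were led by SMARCA2 (3.65 ± 0.35), KDM4C (1.68 ± 0.22), CBX6 (1.56 ± 0.12), TET2 (1.48 ± 0.10) and SMARCD3 (1.03 ± 0.20). The falls were led by TET1 (-2.74 ± 0.32), CBX5 (-1.54 ± 0.20), CHD7 (-1.52 ± 0.13), KDM2B (-1.02 ± 0.12) and SETD9 (-0.99 ± 0.17). All 10 of these calls held under the 14 alternatives. CHD1 (-0.71 ± 0.21) and CBX1 (-0.47 ± 0.15) were called lower here and in no other comparison. CHD1 was lost without IVDS2 replicate 2 or IVDS3 replicate 1, and CBX1 without IVDS2 replicate 1 or either IVDS3 array (highest adjusted p = 0.162 and 0.211). Fewer members rose without any 1 of the 4 arrays compared, and fewer of all genes as well.

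CBX6 and KDM4C shared a course in which whole IVDS2 cultures were the low point. CBX6 read 1.11 and 1.11 in IVDS3, against -0.39 and -0.51 in whole IVDS2 cultures (adjusted p = 2.01e-05), and IVDS2-C and IVDS2-P ranged from -0.21 to 0.07. For both genes the whole IVDS2 arrays lay below all 4 arrays of the colony parts. Such a position outside both parts was found in 11 of the 71 members (15.5%), beside 23% of all genes. KDM8, SIRT7, SIRT6, TET3 and SETDB1 lay above the parts, and SMARCA2, CBX6, TET2, KDM4C, KDM1B and SMARCC2 below them. What differed in the preparation of whole cultures and parts was not tested.

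The 28 members called in none of the 6 comparisons ranged from -0.41 to 0.45 over all of them, and the other 43 were called at least once. A missed threshold does not show that these genes were equal between groups: the SE of an uncalled difference in IVDS3 against ES cells was 0.10 to 0.22 on the log2 scale.

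Genes that work with the members were counted from lists, to be set beside 21.1% called higher and 28.6% called lower among all genes. Of 16 measured BAF partners 4 rose and 3 fell in IVDS3 against ES cells. BCL11B rose by 1.60 ± 0.26, and ACTL6A (BAF53A), the actin-related subunit of proliferating progenitors in mouse, and ARID2 fell by 1.44 and 0.87 (SE 0.15 each). Of 15 partners of deacetylase complexes 2 rose and 4 fell, with the methyl-CpG binder MBD2 at 2.24 ± 0.18 and the NuRD subunit MTA3 at -1.43 ± 0.25. Of 16 Polycomb partners 2 rose and 8 fell, with PHF19, PCGF6 and JARID2 at -1.94 ± 0.18, -1.49 ± 0.21 and -1.07 ± 0.17. Of 9 partners in COMPASS and MLL complexes 1 rose (HCFC2, 1.52 ± 0.15) and 6 fell, among them the shared core subunits ASH2L (-1.08 ± 0.18) and DPY30 (-0.91 ± 0.13).

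Among other modifiers, 2 of 8 genes of DNA methylation rose and 5 fell. The de novo methyltransferase DNMT3B read -2.49 and -2.58 in IVDS3, against 2.68 and 2.76 in ES cells, a difference of -5.25 ± 0.37 on the log2 scale (adjusted p = 9.45e-06), and UHRF1, which recruits the maintenance enzyme, fell by 2.40 (SE 0.27). Histone methyltransferases outside the member families fell in 13 of 18 cases and rose in 2, with a median of -0.68, beside 26 falls and a median of -0.18 among the 71 members. Their examples were SUV39H2 (-1.83 ± 0.17) and SMYD2 (1.84 ± 0.23). Other demethylases rose in 4 of 9 cases (HR, 1.64 ± 0.13) and fell in 2. Other remodellers rose in 2 of 14 (EP400, 1.77 ± 0.23) and fell in 6 (HELLS, -3.19 ± 0.21), and acetyltransferases rose in 1 of 10 (NCOA3, 0.81 ± 0.15) and fell in 2 (KAT7, -1.45 ± 0.22).

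The median log2 fold change in IVDS3 was -0.04 over the BAF partners, -0.09 over the deacetylase partners, -0.18 over the Polycomb partners and -0.45 over the COMPASS and MLL partners, beside -0.13 over all genes. It was -0.64 over the DNA methylation genes, 0.43 over other demethylases, -0.23 over other remodellers and -0.02 over acetyltransferases.

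Several other gene groups moved with these results. Of 15 measured cell cycle genes, 15 fell in IVDS3 against ES cells (median -2.34), 13 fell in IVDS2-C against ES cells, and 6 fell in IVDS2-C against IVDS2-P. The list averaged -2.03 and -1.75 on the IVDS3 arrays, and 0.58 and 0.33 on the ES arrays. On the arrays of the colony areas it averaged -0.24 and -0.79 in IVDS2-C, and 0.24 and 0.01 in IVDS2-P. Of 11 fibroblast genes 8 rose and 2 fell in IVDS3, with averages of 1.59 and 1.38 there and -0.07 and -0.12 in ES cells. LUM and DCN stood 5.48 and 4.57 higher in IVDS3, whereas COL1A1 and THY1 fell by 0.74 and 1.31. All 9 squamous epithelial genes rose (KRT4, 8.56 ± 0.20), with averages of 3.52 and 3.26 in IVDS3 and -0.78 and -0.81 in ES cells, and of 11 liver genes, the tissue the co-culture aimed at, 2 rose (CYP3A4, 3.76 ± 0.16) and 3 fell (APOA1, -1.84 ± 0.55).

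Of 15 pluripotency genes, which check the ES label, 13 fell in IVDS3 and 1 rose. POU5F1 read -4.55 and -4.37 in IVDS3, against 2.98 and 3.30 in ES cells. NANOG went the other way, at 0.47 and 0.41 in IVDS3, against -0.70 and -1.37 in ES cells, by 1 probe set, and whether that set measures NANOG itself was not tested. Centred values cannot show whether any marker was absent from a group. The part of cell division and of the make-up of the cultures in the changes of the chromatin modifier genes was not tested.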

How the data were processed

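Gene expression was measured in 10 samples, and every sample's group came from its title. The deposited values were made with RMA, per the submitters' processing notes, which give no version. The log base, the annotation build and the centring are not stated there, and the deposited values were taken as log2 from the tool and their range. Of the 44294 deposited probe sets, 0 had a median over the 10 arrays beyond 1e-05, so the values had been centred per probe set. The largest range of a probe set was 9.51. No scanner intensities were used here, so background and saturation are unknown, and the number of arrays limits the precision.

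The 84 control probe sets were left out of the fit. Of the other 44210, 22802 named 1 gene in the platform annotation, 316 several and 21092 none, and 22507 of the named sets were matched to RefSeq by gene number, with 0 names changed. Probe sets naming several genes were not used, among them 1 for KDM6B. Probe sets of 1 gene were averaged. All 10 arrays were fitted in limma 3.58.1 (R 4.3.3) with a term per group and moderation by eBayes (residual degrees of freedom 5, those of the prior 3.94, with 0.142 as the prior standard deviation), for 6 comparisons. P-values were adjusted by Benjamini-Hochberg within each comparison. The procedure was tested on simulated data.

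The members and gene lists were chosen with earlier results of these data known. Named genes were up to 3 called rises and falls per family in IVDS3 against ES cells, up to 5 in each other comparison, and fixed sets of paralogues (32 of 40 measured). For the other lists they were up to 3 called genes. The remaining members were named so that each of the 71 was accounted for, and POU5F1, NANOG, COL1A1, THY1 and the probe set examples were chosen after their values were seen. The alternatives were a fit to only the 4 arrays of a comparison, arrays shifted to a common median, a block for replicate number, the probe set that varied most in place of a gene's mean, each array left out in turn, and calls of at least 2-fold. Over 10 pairs of groups the correlation of same-numbered arrays' deviations ran from -0.21 to 0.28, with 5 over 0.1, among them 0.22 between IVDS2-C and IVDS2-P. Not every pair exceeded 0.1, as pairing over all groups would require, so the numbers were not taken as pairing samples. A rule over all pairs of groups cannot decide whether IVDS2-C and IVDS2-P alone were paired.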

Additional observations from a re-analysis of the deposited data

Results flagged for a closer look

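Each of the following members had effects against ES cells that differed between colony centre and periphery by the limma test of IVDS2-C against IVDS2-P, which is the difference of those effects. The differences on the log2 scale were -1.37 for TET1, -0.96 for HDAC9, -0.73 for KDM2B, -0.57 for CHD7, -0.55 for SMARCC1, -0.52 for CBX2, -0.51 for SIRT1 and -0.43 for SMARCAD1. The adjusted p-values ran from 0.00538 for HDAC9 to 0.0473 for CBX2. HDAC9 was the only one of the 8 called higher than ES cells in IVDS2-P, and TET1, KDM2B, SMARCC1, CBX2, SIRT1 and SMARCAD1 were called lower than ES cells in IVDS2-C.

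CBX6 was called in opposite directions against ES cells, higher in IVDS3 (1.02) and lower in whole IVDS2 cultures (-0.54). The difference of these effects was 1.56 (adjusted p = 2.01e-05 in limma), and it rests on 1 probe set. Groups of 2 arrays are too small to test a single array as an outlier.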

How the results depend on the processing

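Of the 115 calls of members, tried under 14 alternatives, 56 held under all and 0 reversed: 24 of 38 in IVDS3 against ES cells, 3 of 8 in IVDS2, 9 of 21 in IVDS2-C and 1 of 8 in IVDS2-P against ES cells, 0 of 8 in IVDS2-C against IVDS2-P, and 19 of 32 in IVDS3 against IVDS2. With only the 4 arrays compared, the members called higher and lower were 1 and 2 in IVDS2 against ES cells and 3 and 1 in IVDS2-P against ES cells, and the lower calls were 5 in IVDS2-C against ES cells and 1 in IVDS2-C against IVDS2-P. With each array centred, lower calls in IVDS2-P against ES cells were 1, and with the replicate number as a block they were also 1. The block moved no other count by over 1.5 times. A rule of at least 2-fold left 0 higher and 1 lower in IVDS2, 3 and 1 in IVDS2-C, 0 and 1 in IVDS2-P and 6 and 5 in IVDS3 against ES cells, 1 lower in IVDS2-C against IVDS2-P, and 5 and 4 in IVDS3 against IVDS2, as its construction allows only larger changes.

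Leaving out 1 array gave 1 to 6 higher and 2 to 7 lower members in IVDS2, 5 to 6 and 4 to 15 in IVDS2-C, 1 to 6 and 0 to 3 in IVDS2-P, and 9 to 11 and 17 to 25 in IVDS3 against ES cells. It gave 0 to 2 higher and 1 to 8 lower in IVDS2-C against IVDS2-P, and 6 to 11 and 14 to 21 in IVDS3 against IVDS2. The lone array left in a group was then assumed to vary like the other groups. The number of calls over all genes changed with the array left out as well. The cause of these changes was not tested, beyond the smaller number of arrays. Centring each array moved the median of all genes by at most 0.0615. No level, background or saturation can be read from centred values, probe sets of 1 gene can disagree (KDM3A and KMT5B held opposite calls), and 2 arrays per group of 1 cell line bound every comparison.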
